A study of Homo sapiens with 4 samples.

Results

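Ribosomal protein pseudogenes are copies of ribosomal protein genes that carry the parent gene's symbol followed by P and a number, such as RPL13AP5, a copy of RPL13A. They were taken from the names and biotypes in the deposited tables, and a copy was kept where its level reached at least 1 FPKM in at least 2 of the 4 libraries. FPKM is the number of fragments per kilobase of transcript, scaled to the mapped fragments. Of 778 loci with such a name and biotype, 33 were kept, and these are 33 of the 10091 loci tested in the series. Since level chose them, their levels are given as a description.

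The libraries came from LNCaP, an established human cell line started from a lymph node metastasis of prostate cancer. Of the 4, 2 came from cells transiently given a plasmid that expresses CRYM and 2 from cells given the empty pReceiver-M72 plasmid. CRYM encodes mu-crystallin, which binds thyroid hormone in the cytosol. All cells were at passage 22. Lipofectamine, at 12 µL for 2500 ng of plasmid, carried the DNA in, the medium held 10% serum, and RNA was isolated after 48 h. GFP was watched during the experiment, but the sources used here do not give the share of cells that took up the plasmid. The libraries of a group are labelled as biological replicates without a word on separate cultures, so p-values measure only the spread between these samples, which may be technical.

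Ribosomal proteins build the small (RPS) and large (RPL) ribosomal subunits, and their short, abundant mRNAs are among the most frequent templates that L1 reverse transcriptase copies back into the genome. The resulting processed pseudogenes lack introns and their parent's promoter, and most gather substitutions, frameshifts and stops. Some are transcribed from neighbouring or surrounding promoters. A short read from a young copy can match the parent mRNA exactly, which makes the level of such a copy hard to measure.

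The sequences of 5 copies are shown beside the matching stretch of the parent's coding sequence, because how far a copy differs from its parent sets how many reads can tell them apart. They are transcripts of GENCODE 29 (GRCh38), read 5′ to 3′ along the copy, and capitals mark the bases that differ within each pair. The first pair is RPS15AP10, which rose most among the copies, with 24 differences in 165 bases.
RPS15AP10: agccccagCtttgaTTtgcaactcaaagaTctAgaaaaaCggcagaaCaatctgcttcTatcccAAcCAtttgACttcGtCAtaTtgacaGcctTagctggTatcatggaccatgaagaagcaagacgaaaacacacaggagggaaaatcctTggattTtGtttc
RPS15A: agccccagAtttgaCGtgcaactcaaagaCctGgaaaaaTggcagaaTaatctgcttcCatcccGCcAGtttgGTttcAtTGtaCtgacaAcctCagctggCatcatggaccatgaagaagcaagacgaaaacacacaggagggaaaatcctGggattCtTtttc

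RPL9P29, the second riser shown, also has 24 differences, in 180 bases, and its longest stretch identical to RPL9 here is 21 bases, shorter than a 50 bp read.
RPL9P29: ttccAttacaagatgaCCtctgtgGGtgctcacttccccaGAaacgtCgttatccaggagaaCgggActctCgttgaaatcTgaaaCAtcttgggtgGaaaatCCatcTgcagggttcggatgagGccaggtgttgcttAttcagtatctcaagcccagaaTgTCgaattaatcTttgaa
RPL9: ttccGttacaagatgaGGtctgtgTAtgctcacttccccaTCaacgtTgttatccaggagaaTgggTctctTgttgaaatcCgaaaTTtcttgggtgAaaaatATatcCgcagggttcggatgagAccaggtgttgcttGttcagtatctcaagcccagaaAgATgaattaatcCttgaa

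RPL23AP3, which fell, has 15 differences in 180 bases, with an identical run of 53 bases.
RPL23AP3: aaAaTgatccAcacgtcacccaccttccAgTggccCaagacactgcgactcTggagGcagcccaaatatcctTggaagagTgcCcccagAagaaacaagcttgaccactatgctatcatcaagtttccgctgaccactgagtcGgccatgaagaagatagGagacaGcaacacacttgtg
RPL23A: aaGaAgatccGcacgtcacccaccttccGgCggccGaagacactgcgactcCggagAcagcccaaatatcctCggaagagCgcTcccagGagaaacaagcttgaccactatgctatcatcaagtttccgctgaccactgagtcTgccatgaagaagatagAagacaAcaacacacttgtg

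RPL39P36 had the highest mean level of all 33, and it has 10 differences from RPL39 in 150 bases.
RPL39P36: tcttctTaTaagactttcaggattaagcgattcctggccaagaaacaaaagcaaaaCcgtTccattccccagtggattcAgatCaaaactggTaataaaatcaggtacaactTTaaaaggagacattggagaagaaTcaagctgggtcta
RPL39: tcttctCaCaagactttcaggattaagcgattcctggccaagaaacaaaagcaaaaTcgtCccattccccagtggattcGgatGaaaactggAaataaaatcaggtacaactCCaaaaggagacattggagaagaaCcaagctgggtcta

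RPL35AP4, listed at 0 in both CRYM libraries, is a fragment of RPL35A with 8 differences in 99 bases.
RPL35AP4: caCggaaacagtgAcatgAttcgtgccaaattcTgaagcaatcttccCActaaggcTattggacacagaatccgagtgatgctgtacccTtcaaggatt
RPL35A: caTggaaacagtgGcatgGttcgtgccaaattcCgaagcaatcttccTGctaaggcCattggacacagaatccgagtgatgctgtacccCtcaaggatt

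The targeted gene was measured first. The locus that its neighbours identify as CRYM (hg19 chromosome 16, 21250195 to 21314404) stood at 1.17 and 0.977 FPKM with the empty vector and at 65.3 and 72.5 FPKM with CRYM, plasmid and endogenous transcripts together. With the depth of the first empty vector library set to 1, the second had 1.14 and the CRYM libraries 0.840 and 1.07, estimated over 2461 loci of low value. Of 10 luminal prostate markers, HOXB13 alone had a name in any library at a locus listed in all 4. It stood at 128.4, 127.7, 110.3 and 114.1 FPKM. Of 4 neuroendocrine and 4 endothelial markers 1 each was named, INSM1 and CLDN5, both under 1 FPKM, and of 5 immune markers HLA-DRA, at 2.40, 2.29, 1.95 and 1.56 FPKM. No basal or fibroblast marker had a name at a locus listed in all 4, and the others, KLK3 among them, were not analysed here. In whole-culture RNA, fewer expressing cells and less RNA per cell cannot be told apart.

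The 33 copies derive from 25 ribosomal proteins, 21 copies from the large subunit and 12 from the small. Their median level was 2.13 and 2.14 FPKM in the empty vector libraries and 2.07 and 1.87 FPKM in the CRYM libraries. Summed over all 33, the level was 99.7 and 105.3 FPKM with the empty vector and 96.3 and 95.4 FPKM with CRYM. Without the 4 copies listed at 0 in at least 1 library, RPL35AP4 among them, the sum was 80.7 and 83.1 FPKM with the empty vector and 96.3 and 87.9 FPKM with CRYM. The CRYM libraries thus had the lower sum with these 4 copies and the higher sum without them. This turn follows in part from the choice, since RPL35AP4 and RPL23AP53 were dropped for zeros in the CRYM libraries alone. It also leans on RPL39P36, the highest copy in both CRYM libraries, with 24.6 and 17.8 FPKM there against 11.9 and 13.7 with the empty vector. Most copies were rare transcripts: 29 of the 33 had a mean of 5 FPKM or less, and 23 reached 1 FPKM in all 4 libraries.

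4 copies stood above the rest in mean level. RPL39P36 (hg19 chromosome 19, 53916443 to 53916598), a copy of the large-subunit gene RPL39, had 11.9 and 13.7 FPKM with the empty vector and 24.6 and 17.8 with CRYM. RPL23AP64 (chromosome 11, 118873722 to 118874156) had 11.2 and 10.1 FPKM with the empty vector and 10.3 and 11.3 with CRYM, and its groups overlapped. RPL13AP5 (chromosome 10, 98510045 to 98510675) had 8.16 and 8.93 FPKM with the empty vector and 7.71 and 8.01 with CRYM. The fourth, RPL35AP4, reached 16.8 and 14.6 FPKM with the empty vector and was listed at 0 with CRYM. RPL13AP5 and RPL23AP64 were near level in all 4 libraries, and RPL39P36 was higher in both CRYM libraries than in either empty vector library.

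**Figure D1:**
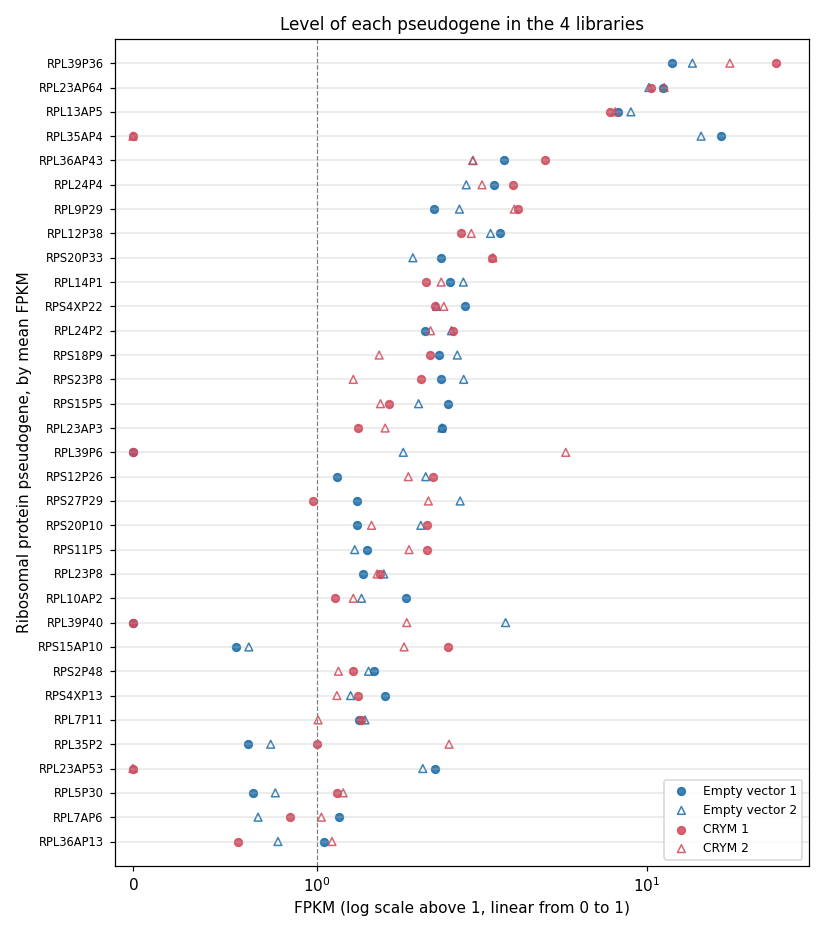
Level of each of the 33 pseudogenes (rows, ordered by mean FPKM) in each library, in FPKM on an axis that is linear from 0 to 1 and logarithmic above. Circles and triangles are libraries 1 and 2 of a group, blue for empty vector and red for CRYM, and the dashed line marks 1 FPKM, the level used to choose them. Most rows lie between 1 and 5 FPKM, and RPL35AP4 and RPL23AP53 have both red points at 0.

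A level in FPKM hides how few fragments a short copy received. The deposited intervals were read as 2 SD of counting error to either side of the level, which gives the number of fragments behind it. By this measure 23 copies had at least 10 in every library. The other 10 had fewer in at least 1 library. RPL23AP64 rested on 157.5, 179.8, 130.9 and 190.6 fragments in the order empty vector 1, empty vector 2, CRYM 1, CRYM 2, whereas RPL39P36, of 156 bp and with a higher FPKM, rested on 6, 8, 11 and 9.6. For RPL35AP4, of 102 bp, 2 fragments per empty vector library gave the levels above. Ranking copies by FPKM and by fragments therefore gave different orders.

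**Figure D2:**
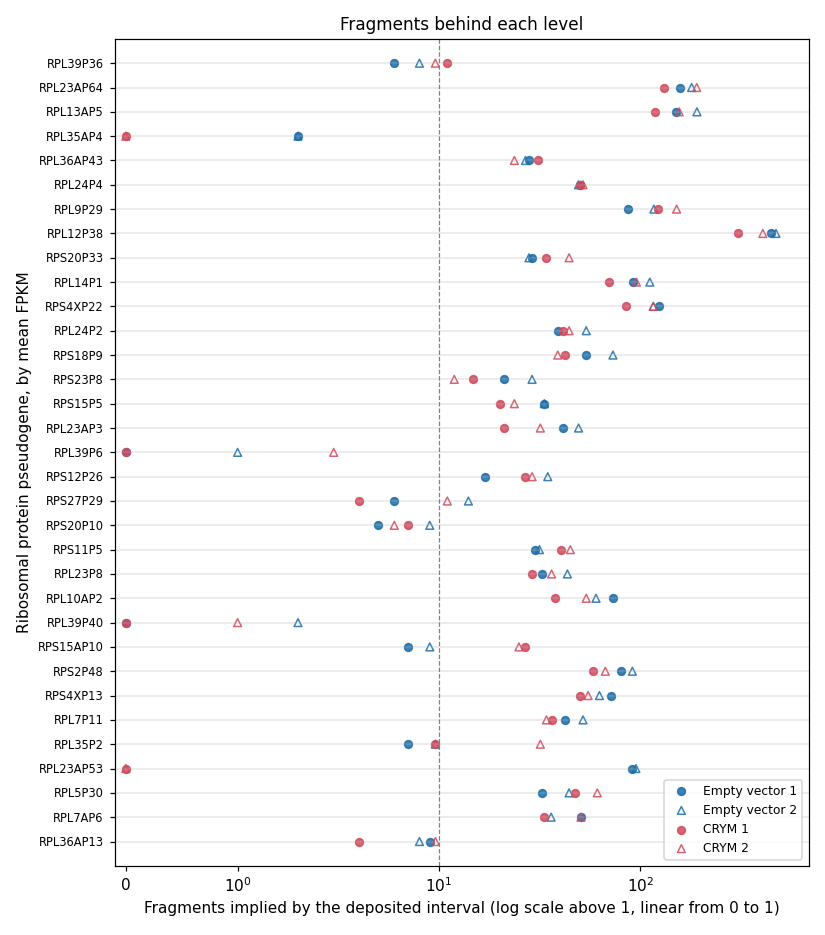
Fragments implied by the deposited interval for each pseudogene and library, with rows, colours and symbols as in the plot of levels and a dashed line at 10 fragments. RPL39P36, first by FPKM, has 6 to 11 fragments, while RPL23AP64 and RPL13AP5 have over 100 in every library.

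Between the groups, 6 of the 33 copies changed and 27 did not pass the test. RPS15AP10, RPL9P29 and RPS20P33 rose in CRYM cells, and RPL35AP4, RPL23AP53 and RPL23AP3 fell. For 3 of these, RPS15AP10, RPL35AP4 and RPL23AP53, the choice of copies itself required a difference, so their calls are a description. The test was limma on log2(FPKM + 1) with Benjamini-Hochberg adjustment at 0.05 over the 10091 loci, a scale that understates the change of low genes. The 6 make 18.2% of the copies. In the same fit 33.3% of all tested loci passed, 27.7% of the 6046 loci whose mean level lay within the range of the copies, and 18.4% of the 369 other tested pseudogenes. At an unadjusted limma p under 0.05 there were 11 copies (33.3%), against 46.1% of all tested loci, 40.8% of those in the range of the copies and 30.6% of the other pseudogenes.

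By direction, 9.09% of the copies rose and 9.09% fell, against 15.7% and 17.7% of all tested loci, 17.4% and 10.3% of those in the range of the copies, and 13.6% and 4.88% of the other pseudogenes. The groups did not overlap in 18 copies (54.5%), compared with 72.2% of all tested loci, 69.1% of those in their range and 55.3% of the other pseudogenes. The median log2 difference, CRYM minus empty vector, was -0.07 over the copies, 0.01 over all tested loci and 0.15 over the other pseudogenes, with 16 copies above 0 and 17 below. The share of copies called thus lay below that of all tested loci and near that of the other pseudogenes. Of the 33, 5 passed the level filter through 1 group alone, RPL35AP4 and RPL23AP53 through the empty vector and RPS15AP10, RPL35P2 and RPL5P30 through CRYM, and these had to differ between the groups to be chosen. With at least 1 FPKM required in all 4 libraries, 23 copies were left and the calls were RPL9P29, RPS20P33 and RPS11P5 as rises and RPL23AP3 as the 1 fall. Of all 8746 loci tested under that filter, 1576 rose and 1840 fell.

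Leaving out empty vector library 1, empty vector library 2, CRYM library 1 or CRYM library 2 ended the call of all 6 copies, as it did for every other tested locus: the smallest limma adjusted p was then 0.0712, 0.0662, 0.0550 and 0.0591. With the replicate number as a block it was 0.0569.

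**Figure D3:**
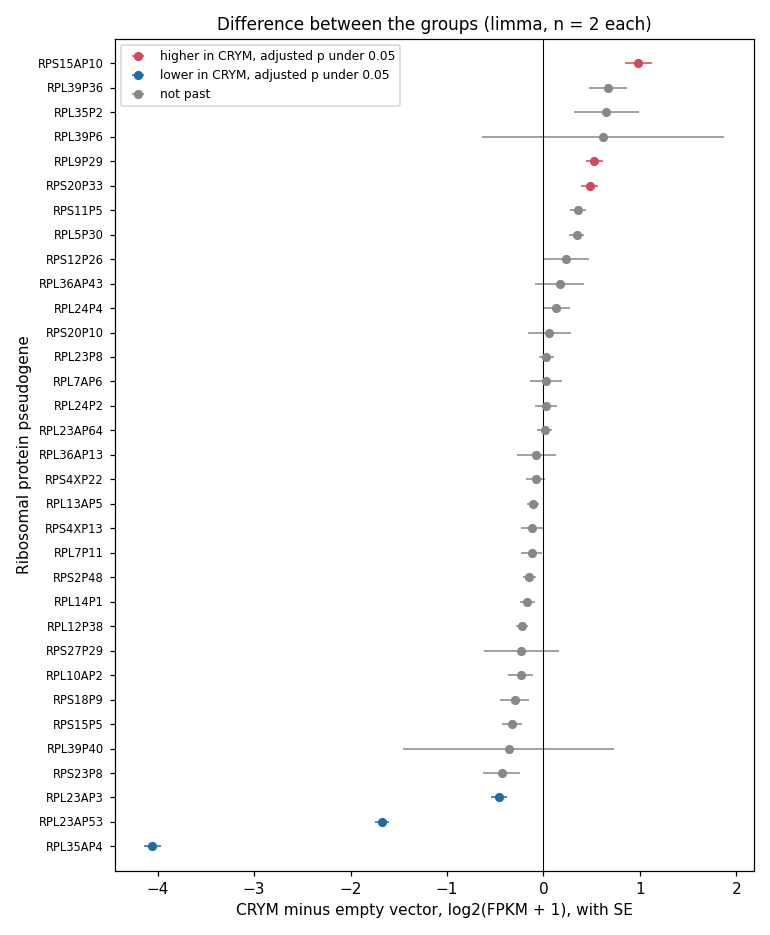
Difference between CRYM and empty vector in log2(FPKM + 1) for each of the 33 pseudogenes, with its standard error from limma (n = 2 libraries per group). Red marks the 3 that rose, blue the 3 that fell and grey the 27 not past the threshold, and the points run from -4.06 for RPL35AP4 to 0.98 for RPS15AP10.

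RPS15AP10 (hg19 chromosome 1, 46111488 to 46111869) copies RPS15A, which encodes a protein of the small subunit. Its level was 0.563 and 0.631 FPKM in the empty vector libraries and 2.51 and 1.84 FPKM in the CRYM libraries. Both CRYM libraries were above both controls, from 0.597 ± 0.0485 to 2.17 ± 0.471 FPKM (SD, n = 2 each), a 3.64-fold rise. The log2 difference was 0.98 (SE 0.139) with a limma adjusted p of 0.0256, and 0.83 to 1.13 with any 1 library left out (limma adjusted p 0.0688 to 0.128). Fragments numbered 7 and 9 with the empty vector and 26.9 and 25 with CRYM, a ratio of 3.72 at equal depth. Without the filter on low levels the limma adjusted p was 0.132.

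RPL9P29 (chromosome 17, 76842035 to 76842950) copies RPL9, a gene of the large subunit. It stood at 2.27 and 2.71 FPKM with the empty vector and at 4.07 and 3.97 FPKM with CRYM, again without overlap. The means were 2.49 ± 0.309 and 4.02 ± 0.0750 FPKM (SD, n = 2 each), a 1.62-fold rise with a log2 difference of 0.53 (SE 0.0875) and a limma adjusted p of 0.0332. Left-out libraries gave 0.44 to 0.62 (limma adjusted p 0.0781 to 0.145). It is the best sampled of the risers, with 86.4, 116.7, 122.8 and 151.4 fragments, a ratio of 1.53 at equal depth.

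Each library lists a further locus that overlaps the end of RPL9P29 by 59, 59, 59 and 53 bp. It had 29.8 and 11 FPKM with the empty vector and 3.88 and 3.81 FPKM with CRYM. That locus is 155 and 240 bp long in the empty vector libraries and 2066 and 2099 bp long in the CRYM libraries. A second locus, of 271 and 273 bp, lies inside RPL9P29 in the empty vector libraries alone, at 2.36 and 2.86 FPKM. The assembled loci at this place thus differed between the groups, and their part in the rise was not tested. Rescaling to the same total, quantile normalization and dropping the filter ended the call of RPL9P29, at limma adjusted p of 0.0574, 0.0538 and 0.158.

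RPS20P33 (chromosome 14, 105840955 to 105841308), a copy of the small-subunit gene RPS20, had 2.38 and 1.96 FPKM with the empty vector and 3.39 and 3.42 FPKM with CRYM. Its CRYM libraries lay above both controls, from 2.17 ± 0.298 to 3.40 ± 0.0182 FPKM (SD, n = 2 each). The rise was 1.57-fold, with a log2 difference of 0.48 (SE 0.0917), and a limma adjusted p of 0.0424. Left-out libraries gave 0.38 to 0.58 (limma adjusted p 0.0816 to 0.161). It rested on 29 and 28 fragments with the empty vector and 34.2 and 44.3 with CRYM. The call was lost on rescaling to the same total, on quantile normalization and without the filter, at limma adjusted p of 0.0698, 0.10 and 0.195.

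RPL23AP3 (chromosome 21, 37388377 to 37388844) copies RPL23A, a large-subunit gene, and was the single copy that fell with a level above 0 in every library. It had 2.40 and 2.39 FPKM with the empty vector and 1.34 and 1.61 FPKM with CRYM. The means were 2.40 ± 0.00445 and 1.47 ± 0.196 FPKM (SD, n = 2 each), a 1.62-fold fall with a log2 difference of -0.46 (SE 0.0848) and a limma adjusted p of 0.0399. With 1 library left out it was -0.54 to -0.38 (limma adjusted p 0.0828 to 0.155). Fragments went from 41.3 and 49.3 to 21 and 31.9. Rescaling to the same total and dropping the filter gave limma adjusted p of 0.0993 and 0.170.

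RPL35AP4 (chromosome 6, 33357151 to 33357252) and RPL23AP53 (chromosome 8, 163186 to 182231) were listed at 0 in both CRYM libraries, so no fold is given and their fitted differences depend on the pseudocount. RPL35AP4, the RPL35A fragment printed above, differed by -4.06 on the log2 scale (SE 0.0899, limma adjusted p 0.00328), and this rested on 2 fragments in each empty vector library. RPL23AP53 had 2.29 and 2.1 FPKM, with 90.4 and 95.1 fragments, in the empty vector libraries. It differed by -1.67 (SE 0.0747, limma adjusted p 0.00615). Without 1 library in turn, the limma adjusted p was 0.0591 to 0.0712 for RPL35AP4 and 0.0670 to 0.0734 for RPL23AP53. Both copies kept their call without the filter and under every rescaling. Scaling a library by a factor leaves its zeros at 0, so the rescalings lend these calls no support.

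RPL23AP53 is listed as 19046 bp long, unlike the other copies, whose median over all 33 is 460 bp. Within this span the CRYM libraries list 3 short loci each, of 319 to 616 bp, at 0.408 to 1.01 FPKM. Empty vector library 2 lists 3 short loci too, of 180 to 519 bp, at 0.469 to 7.78 FPKM, the highest value at the shortest locus. In all 4 libraries a longer locus starts at 182137, inside the last 95 bp of RPL23AP53. It had 2.2 and 2.08 FPKM with the empty vector and 3.89 and 2.82 FPKM with CRYM. The zeros of RPL23AP53 thus stand beside other loci that held reads at the same place, and whether reads moved between them was not tested.

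Several copies came close to the threshold. RPS11P5 had 1.42 and 1.30 FPKM with the empty vector and 2.15 and 1.90 FPKM with CRYM (log2 difference 0.36, limma adjusted p 0.0537), and RPL5P30 had 0.656 and 0.775 against 1.15 and 1.20 (0.34, limma adjusted p 0.0554). RPL12P38 had 3.58 and 3.36 FPKM against 2.73 and 2.94, a difference of -0.22 with a limma adjusted p of 0.0882, and it rested on 306.9 to 471.8 fragments. RPS11P5 and RPL5P30 were called higher without a trend in the variance model and at loci of at least 300 bp, and RPL12P38 was called lower after quantile normalization. RPS11P5 and RPL5P30 were singled out after their values were seen, and RPL12P38 is among the 10 highest in mean level.

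RPL39P36, at the top of the levels, differed by 0.67 on the log2 scale (SE 0.197) and did not pass (limma adjusted p 0.0927). The other copies among the 10 highest that did not pass were RPL23AP64, at 0.02 (limma adjusted p 0.906), RPL13AP5, at -0.11 (0.283), RPL36AP43, at 0.17 (0.655), RPL24P4, at 0.13 (0.515), RPL14P1, at -0.17 (0.210), and RPL12P38, given above. RPL36AP43 had 3.69 and 2.97 FPKM with the empty vector and 4.93 and 2.97 FPKM with CRYM, so its groups overlapped. RPL24P4, with 3.45, 2.84, 3.93 and 3.17 FPKM, overlapped as well. RPL14P1 went from 2.53 and 2.78 to 2.14 and 2.38 FPKM without overlap.

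Families of very different size gave the kept copies. RPL7 has 57 annotated copies and 1 was kept, RPL21 has 51 and none was kept, and RPS3A has 34 with none kept. RPL23A had 3 kept of 26 and RPL39 had 3 of 11, while RPS4X, RPL36A, RPS20 and RPL24 had 2 each.

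The 3 RPL23A copies went different ways: RPL23AP64 was level, RPL23AP3 fell and RPL23AP53 was listed at 0 with CRYM. The 3 RPL39 copies are all short, of 146 to 156 bp, and none passed the test. RPL39P6 (chromosome 1, 11293020 to 11293169) had 0, 1.83, 0 and 5.68 FPKM, from 0, 1, 0 and 3 fragments. RPL39P40 (chromosome 21, 18872997 to 18873142) had 0, 3.73, 0 and 1.87 FPKM, from 0, 2, 0 and 1 fragments. For RPL39P6 and RPL39P40 the libraries numbered 1 of both groups are at 0 and those numbered 2 are not, a split across the groups.

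Many copies lie inside introns, where reads of the surrounding transcript can be counted for the copy. By GENCODE 29, 14 of the 33 (42.4%) lie in an intron of a protein-coding gene, 6 of them on the gene's own strand. Of the 698 other matched copies, 217 (31.1%) do. A longer locus present in all 4 libraries spans 14 copies in the deposited files, these with RPL10AP2 in place of RPL7P11. Of the spanned copies 2 were called, against 4 of the 19 others, beside 33.3% of all tested loci and 18.4% of the other tested pseudogenes. RPS15AP10 among the 2, and RPL35AP4 and RPL23AP53 among the 4, had to differ to be chosen. No difference is therefore read from these counts. The sources used here do not say whether strand entered the quantification.

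RPS15AP10 lies in an intron of GPBP1L1, on the same strand. The unnamed locus that spans it had 22.2, 22.4, 31.8 and 31.4 FPKM and rose 1.42-fold, by 0.49 on the log2 scale (SE 0.0261, limma adjusted p 0.00709). The copy and the spanning locus thus both rose, the copy by the larger fold. RPS20P33 lies in an intron of PACS2, also on the same strand, and its spanning locus had 8.27, 12.7, 11.2 and 12.0 FPKM, a difference of 0.16 (SE 0.230, limma adjusted p 0.627). There the copy was called and the spanning locus was not.

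RPL39P36 lies on the strand of ZNF765, within one of its introns, and the spanning locus was level at 4.97, 5.09, 5.13 and 5.16 FPKM. The locus around RPL39P6, which GENCODE places in an intron of MTOR, fell by 0.53 (limma adjusted p 0.00813), and that around RPL36AP43, in PEX11A, fell by 0.28 (limma adjusted p 0.0258). Neither copy passed. RPL23AP64, the best sampled of the high copies, is spanned by a locus listed at 0 in all 4 libraries. What part of any copy's reads came from surrounding transcripts was not tested.

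**Figure D4:**
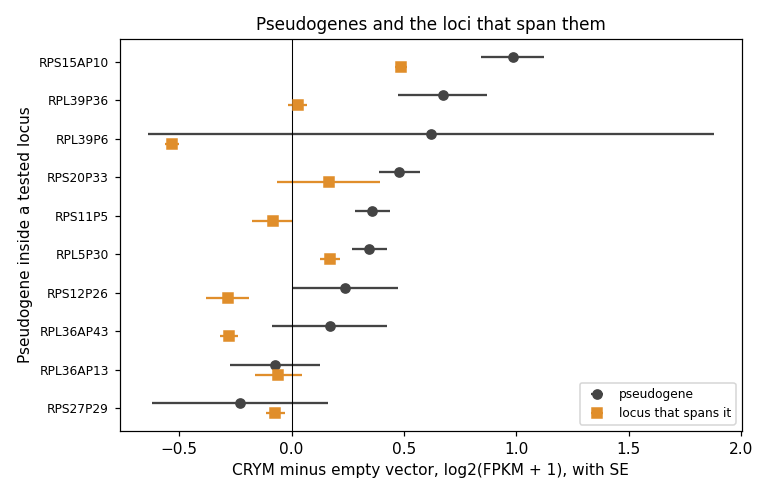
Difference between CRYM and empty vector in log2(FPKM + 1), with standard error, for each pseudogene (dark circles) that lies inside a tested locus and for that locus (orange squares), 10 pairs in all. RPS15AP10 and its locus are both right of 0, at 0.98 and 0.49, whereas RPL39P6 has an error bar far wider than that of its locus at -0.53.

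Parents could be set beside their copies in few cases, since most ribosomal protein genes carry no name in these files. Of 88 ribosomal protein genes, 8 had a name in at least 1 library at a locus listed in all 4, and 7 were tested. Of these 2 fell, none rose and 5 did not pass, with a median log2 difference of -0.24. In the same fit 33.3% of all tested loci passed, 17.7% as falls and 15.7% as rises. RPS12, of the small subunit, fell from 2407 and 2223 FPKM to 1946 and 1925 FPKM, a difference of -0.26 (SE 0.0512, limma adjusted p 0.0453). RPL41, the smallest large-subunit protein, fell from 1405 and 1392 to 1172 and 1198 FPKM, at -0.24 (SE 0.0248) with a limma adjusted p of 0.0166. RPL27 and RPLP1 did not pass, at -0.14 and -0.32 (limma adjusted p 0.0737 and 0.104), and quantile normalization put RPL27 at 0.04. RPL41 is named after its value was seen, as a member of a count of 2. RPS12 and RPL41 lost their calls on rescaling to the same total and on quantile normalization, and the latter put them at -0.09 and -0.096 and called another gene, RPL36AL, higher by 0.23 (limma adjusted p 0.0250).

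RPS12P26 and RPL35P2 are the copies whose parents were measured. RPS12P26 had 1.15 and 2.14 FPKM with the empty vector and 2.25 and 1.90 FPKM with CRYM, which is 0.0479%, 0.0962%, 0.116% and 0.0984% of RPS12. RPL35P2 had 0.628 and 0.750 FPKM with the empty vector and 1.00 and 2.52 FPKM with CRYM, which is 0.0286%, 0.0378%, 0.0603% and 0.145% of RPL35. RPL35 itself had 2198, 1986, 1665 and 1735 FPKM and did not pass (limma adjusted p 0.0559). Neither copy passed, with limma adjusted p of 0.494 and 0.237. The CRYM libraries of RPL35P2 lay further apart than its group means.

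Among other genes of protein synthesis, 1 of 44 translation factors and 2 of 34 ribosome biogenesis genes were tested. EIF4EBP1, which encodes 4E-BP1, the repressor of the cap-binding factor eIF4E, fell 1.77-fold, from 201.3 and 195.1 to 111.5 and 111.8 FPKM (log2 difference -0.82, SE 0.0263, limma adjusted p 0.00487). SBDS, a factor of large-subunit maturation, and NOP10, a part of box H/ACA particles, did not pass, at 0.02 and -0.07 (limma adjusted p 0.918 and 0.0873).

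All 33 copies were matched to GENCODE 29, as were 731 of the 733 matching loci on chromosomes. By identity to the parent mRNA over the aligned bases, the kept copies had a median of 94.6% (77.6% to 99.5%) and the 698 others 90.1% (from 61.0% up to full identity). Of all stretches of 50 bases, the read length, in a copy, the median share found exactly in a transcript of another gene was 13.8% for the kept copies and 0.457% for the others. No such stretch was shared by 6 of the 33 kept copies and by 333 of the 698 others. These are descriptions of copies chosen by level, with no test, and how far shared stretches fed the levels was not tested.

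RPL35P2 shares 93.6% of its stretches with other genes of any kind, but 21.7% with its parent RPL35. RPL13AP5, 99.5% identical to RPL13A, shares 79.4% with other genes and 73.4% with RPL13A. At the other end are RPS20P33, RPL9P29 and RPS15AP10, at 77.6%, 84.9% and 87.2% identity. They are the 3 kept copies under 90% identity and also the 3 that rose, an overlap noticed after the values were seen. RPS15AP10 had to differ between the groups to be kept. RPS11P5 and RPL5P30, called higher in other settings, have 96.6% and 94.7% identity, so the overlap depends on the setting. In the GENCODE transcripts, RPS20P33 and RPL9P29 share no stretch of 50 bases with any other gene, and RPS15AP10 shares 0.300%. The transcript of RPL9P29 has 593 bases, so part of its measured locus of 916 bp was not searched. Of the copies that fell, RPL35AP4 shares none, RPL23AP3 20.3% and RPL23AP53 33.3%. With the parent RPL23A, RPL23AP3 shares 5.97% and RPL23AP53 none. The transcript searched for RPL23AP53 has 457 bases, against a measured locus of 19046 bp.

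**Figure D5:**
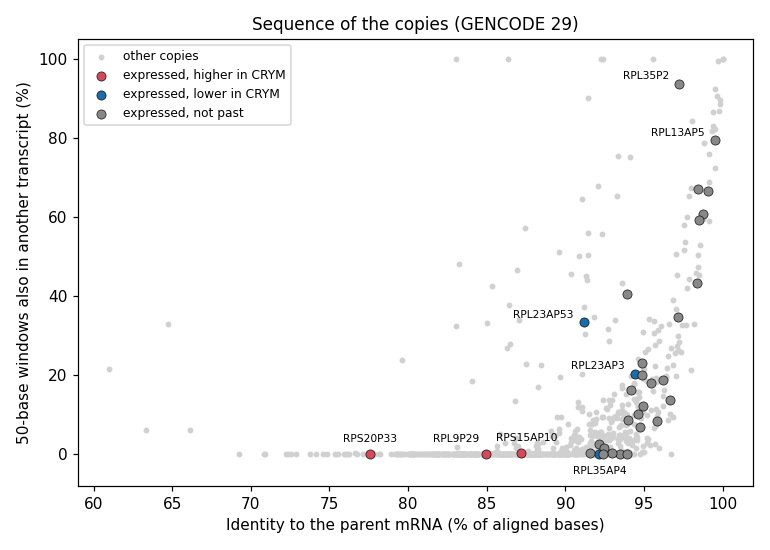
Identity of each copy to its parent mRNA (x axis, percent of aligned bases) against the share of its 50-base windows found exactly in another gene's transcript (y axis, percent). Grey points are copies that were not kept, and outlined points are the 33 kept copies, red where they rose, blue where they fell and dark grey where they did not pass. The red points lie left of 90% identity at or near 0% shared, and RPL13AP5 and RPL35P2 lie at the upper right.

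An unbroken reading frame was present in 5 kept copies (15.2%), RPL10AP2, RPL13AP5, RPL14P1, RPL7AP6 and RPS11P5, and in 45 others (6.45%). A frameshift or premature stop was found in 23 kept copies. None of the 5 with an unbroken frame passed the test, beside 18.2% of all 33 copies and 33.3% of all tested loci. So few copies tell nothing about frames, and RPS11P5 was called higher in other settings. GENCODE classes 4 of the 33 as transcribed pseudogenes.

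The choice at 1 FPKM in 2 libraries cut through a continuum of low levels. Just inside were RPL35P2, whose second-highest library had 1.00 FPKM, and RPL7AP6, with 1.03 FPKM. Just outside were RPL10AP6, with 0.920 FPKM, and RPS18P12, with 0.904 FPKM. Among the 745 loci left outside, 377 were listed at 0 in every library.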

How the data were processed

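RNA of LNCaP cells was sequenced as single reads of 50 bp from stranded mRNA libraries, per the labels' protocols. The submitters' processing notes list Cufflinks 2.2.1, Cuffdiff, Bowtie2 2.2.9 and TopHat2 2.1.1 and the builds GRCh37 and hg19, with no role for any. Per the file headers, the authors deposited FPKM by locus, with its interval and status. FPKM is no count and the absolute depth is unknown. The intervals are given per library and do not cover the spread between libraries. For abundant genes they cannot be read as counting error alone. In empty vector library 1 RPS12, at 2407 FPKM, gave 2278 implied fragments and HOXB13, at 128.4 FPKM, gave 2218.

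The 4 tables were joined by identical position, giving 52318 loci, of which 37712 had a name in at least 1 table. Positions are hg19, counted from 1. Loci with status OK in all 4 and at least 1 FPKM in at least 2 libraries were tested, 10091 in all, with limma 3.58.1 (R 4.3.3) on log2(FPKM + 1): 2 groups, a variance trend, two-sided tests and adjustment by Benjamini-Hochberg at 0.05. The fit was tested on simulated data. Of the 33 copies, 26 carry their name in all 4 tables and 7 in fewer. Of the 778 matching loci, 45 are on alternative or unplaced sequences.

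Implied fragments are the squared ratio of FPKM to 1 SD of its interval. CRYM was identified as the locus without a name that follows ANKS4B. Transcripts of GENCODE 29 (GRCh38) were matched by Ensembl identifier and aligned to the parent mRNA with Biopython 1.88, with windows searched on both strands, and 25 of the 33 have the same length in both sources. Python 3.11.15, pandas 2.3.3 and numpy 2.4.6 were used.

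The copies, gene lists and tests were chosen with earlier results of these data known. Named by rule are the 10 copies highest in mean FPKM, up to 8 rises and 8 falls past the threshold without overlap, the 4 nearest the level threshold, families of 3 or more, and up to 4 tested genes of each list. Alternatives covered the pseudocount, filter, status, scaling, replicate block, variance trend, locus length and each library left out. Subsets of the copies were added after seeing the data. Some items are not reported here.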

Additional observations from a re-analysis of the deposited data

How the results depend on the processing

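None of the 6 called copies changed direction in any of the 16 planned settings that could be computed for it. Counts are given as rises and falls. Over all tested loci they went from 1582 and 1783 to 261 and 479 without a filter and to 678 and 623 when rescaled to the same total. For the copies they went from 3 and 3 to 0 and 2 without a filter (30 of 778 at an unadjusted limma p under 0.05), to 0 and 1 at 5 FPKM or more (4 copies left), to 1 fall at 1 FPKM or more in all 4 libraries (23 left), to 1 rise at the same total and 1 rise after quantile normalization, and to 5 rises without a trend and 5 at loci of at least 300 bp. Beside the 5 rises, 1614 of all 10091 loci rose without a trend and 1799 of 9205 at loci of at least 300 bp. Among subsets of the copies chosen after seeing the data, falls were 1 without copies listed at 0 (29 left) and 1 at 10 fragments or more (23 left). In the subset outside spanning loci (19 left) rises were 1.

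Of the ribosomal protein genes, 2 were called as reported, 0 without a filter, 0 at the same total, 1 at the same median, 1 after quantile normalization, 1 without a trend and 4 at loci of at least 300 bp. With the replicate number as a block, 0 loci rose and 0 fell (3820 at an unadjusted limma p under 0.05), and 0 copies (8 unadjusted), 0 ribosomal protein genes and 0 translation factors were called. Same-numbered libraries deviated together with r = 0.0361 over the tested loci and 0.712 over the copies, and the labels do not say that a number marks a shared batch. RPL39P6 and RPL39P40 weigh on the r of the copies, at 0 in library 1 of both groups and on 1 to 3 fragments in library 2. The r without them was not computed. Without any 1 library, every one of these counts was 0 to 0, with 3627 to 3815 loci and 5 to 7 copies at an unadjusted limma p under 0.05, and the lone library was assumed to vary like the other group.

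The median log2 difference of the copies, -0.07 with a replicate SD of 0.0482, was -0.020 at a pseudocount of 5, 0 without a filter, -0.16 after quantile normalization, 0.015 without copies listed at 0, -0.12 outside spanning loci and -0.07 to -0.05 without 1 library. Depth limits the 10 copies with fewer than 10 implied fragments in at least 1 library most.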

Other observations

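A further 8 copies reached 1 FPKM in exactly 1 library and were not tested. RPL29P24 (hg19 chromosome 12, 120960467 to 120961246), a copy of RPL29, had 0.667 and 0.373 FPKM with the empty vector and 1.27 and 0.856 FPKM with CRYM, on 11.9, 8, 20 and 17 fragments. Its groups did not overlap. RPL31P52 had 0.887, 0.836, 0.790 and 1.08 FPKM and RPL36AP26 had 0.276, 0.559, 0.485 and 1.11 FPKM, with overlapping groups.

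Single fragments set the level of the shortest of these copies. RPS23P5, of 103 bp, had 8.56 FPKM from 1 fragment in empty vector library 1 and was listed at 0 in the other libraries. RPL39P38 had 6.07 FPKM from 3 fragments in CRYM library 1 alone, and RPL39P26 had 1.27 FPKM from 1 fragment in CRYM library 2 alone.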
